A study of Mus musculus with 5 samples.

Results

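The question taken up here is which genes of the mouse gut differed in the same direction with Lactobacillus gasseri OLL2716 (LG21), whether or not aspirin was given. Members were chosen by a rule on sign. A gene counted when LG21+GA differed from GA+GA, and LG21+Asp from GA+Asp, in the same direction, and genes were then ranked by the smaller of the 2 differences. Of 9969 genes above a filter level, 3144 met the rule, on 4 of the 5 arrays in the series. The ranking itself uses the measured values, so the values of the leading genes describe the selection and do not test it.

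Each group was 1 Affymetrix Mouse Gene 1.0 ST array of RNA from the gut of male ddY mice, an outbred stock, aged 5 weeks and described as healthy. All mice had 2 oral administrations 0.5 h apart, and the tissue was taken 4 h after the last. GA+GA received gum arabic (GA) both times and LG21+GA received LG21 and gum arabic. GA+Asp received gum arabic and aspirin (Asp), and LG21+Asp received LG21 and aspirin. The fifth group, teprenone and aspirin, was not used. Whether an array holds 1 mouse or a pool is not given in the sources used here, and no array has a replicate. Treatment, animal and dissection therefore cannot be told apart within a pair of arrays, and agreement between the pairs, which share no array, is the only repeat of the LG21 difference.

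LG21 is a lactic acid bacterium used in fermented milk and studied for its effects on the stomach. Aspirin acetylates the cyclooxygenases, the enzymes that turn arachidonic acid into the prostaglandin precursor. Ptgs1 encodes the form present at all times and Ptgs2 the form induced by injury and inflammation, and the prostaglandins they make sustain mucus, bicarbonate and blood flow in the stomach lining. The mouse stomach has a glandular part, with surface mucous, parietal and chief cells, and a forestomach lined by stratified squamous epithelium.

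The tissue was labelled gut, and genes that define the glandular stomach gave high values on each array. On the log2 scale of the deposited values, the surface mucin Muc5ac lay between 13.29 and 13.32 over the 4 arrays. The trefoil peptide Tff1 lay between 13.32 and 13.34, and Gkn1 stood at 13.28 on all 4. Atp4a, which encodes the ion-pumping subunit of gastric acid secretion, lay at 13.44 or 13.45. The colipase gene Clps, listed here under exocrine pancreas, also lay high, between 13.66 and 13.71. Uty (9.03 to 9.08), Eif2s3y and Kdm5d were high and Xist low (4.88 to 4.91) on each array, which matches the label male. Array medians ran from 6.94 to 6.98.

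Promoter sequences are shown for 3 of the leading genes, as the stretch of 250 bases before the annotated start (RefSeq, build GRCm38.p6), to give the sequence context of the first-ranked higher gene, an immediate early gene and a leading lower gene. For H2-Eb1 (chr17:34305617-34305866, plus strand) and Glo1 (chr17:30612660-30612909, minus strand) capitals mark CCAAT, the box bound by NF-Y, on either strand, where ATTGG is its reverse. For Fosb (chr7:19310046-19310295, minus strand) capitals mark TGACG, the core of the cyclic AMP response element, searched on both strands. The motifs do not overlap each other in these windows.
H2-Eb1: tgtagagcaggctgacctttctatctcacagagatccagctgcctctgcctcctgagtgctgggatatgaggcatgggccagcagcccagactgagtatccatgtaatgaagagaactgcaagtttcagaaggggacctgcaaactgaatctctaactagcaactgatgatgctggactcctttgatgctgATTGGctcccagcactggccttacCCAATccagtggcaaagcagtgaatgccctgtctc
Fosb: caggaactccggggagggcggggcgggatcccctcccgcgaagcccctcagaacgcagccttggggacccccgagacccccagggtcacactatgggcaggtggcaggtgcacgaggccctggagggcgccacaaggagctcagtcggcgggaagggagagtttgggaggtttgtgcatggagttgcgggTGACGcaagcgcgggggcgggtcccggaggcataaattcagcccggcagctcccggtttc
Glo1: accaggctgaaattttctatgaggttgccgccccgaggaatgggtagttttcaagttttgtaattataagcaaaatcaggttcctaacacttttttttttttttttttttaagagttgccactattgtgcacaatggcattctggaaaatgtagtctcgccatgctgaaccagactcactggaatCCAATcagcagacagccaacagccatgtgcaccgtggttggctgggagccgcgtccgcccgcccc
H2-Eb1 had 2 matches of CCAAT, Glo1 had 1, and Fosb had 1 match of TGACG. Over 32851 RefSeq promoter windows of the same length, 33.8% held CCAAT and 17.8% held TGACG, so such matches are frequent. The Ptgs2 window held neither string. A match describes letters only, and no binding was measured.

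Few genes differed by much in both pairs. Only H2-Eb1 was at least 1.2-fold higher with LG21 both times (0.01% of 9969 genes), and 4 genes were at least 1.2-fold lower both times (0.0401%), namely Krt4, Glo1, Pga5 and the predicted gene Gm10785. At 1.1-fold, 13 genes were higher (0.13%) and 44 lower (0.441%). At 1.5-fold there was 0 in either direction. The differences of single pairs were more numerous, with 47 genes at least 1.2-fold higher and 84 lower without aspirin, and 63 and 121 with it.

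In all, 1123 genes (11.3%) were higher and 2021 (20.3%) lower with LG21 in both pairs. Another 3416 genes (34.3%) had opposite signs and 3409 were exactly equal in at least 1 pair. Both LG21 arrays lay above both GA arrays for 513 genes (5.15%) and below them for 1142 (11.5%). The excess of lower genes depended on the scaling and on the filter. Higher genes made up 35.7% of the same-sign genes as deposited, 46.8% after cyclic loess and 59.8% after quantile normalization, and over all 19938 genes, without the filter, 2792 were higher (14.0%) and 2628 lower (13.2%). The median average difference was 0.00 on the log2 scale.

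The average difference was tested with limma, with aspirin as a term, on the 4 arrays. The spread left over in this fit is the disagreement between the 2 LG21 differences of a gene, not the spread between animals. No gene passed an adjusted p of 0.05 (0.0% of 9969 genes), and the lowest adjusted p by limma with Benjamini-Hochberg adjustment was 0.815. The number at an unadjusted p under 0.05 was 104 higher and 284 lower, 3.89% in all. The fit has 1 residual degree of freedom per gene, and an exact permutation of 2 arrays against 2 cannot give a two-sided p below 0.333. All 24 genes ranked below had that adjusted p of 0.815, so their values are given as descriptions and standard errors come from this fit.

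**Figure D1:**
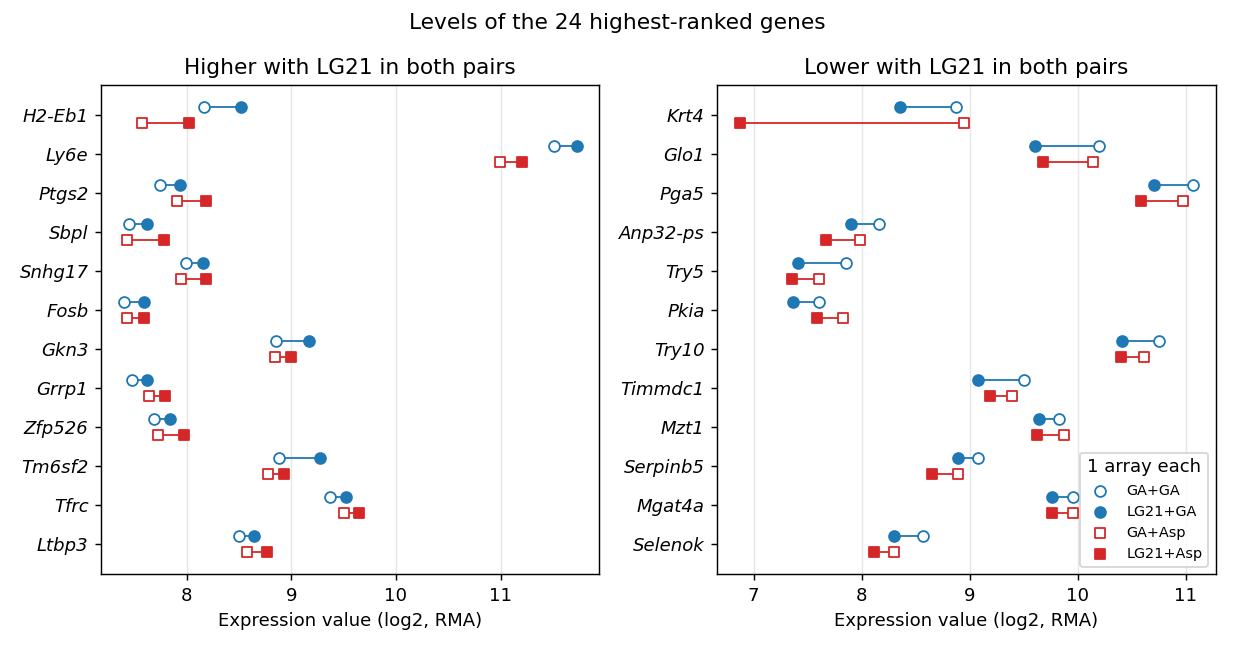
Expression values (log2, RMA) of the 12 highest-ranked genes in each direction on the 4 arrays, with lines joining the GA and LG21 array of a pair (blue circles without aspirin, red squares with aspirin, filled for LG21). In the left panel every filled symbol lies right of its open partner and in the right panel left of it, as the rule requires; the line of Krt4 with aspirin is far longer than its line without.

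Among immune genes, H2-Eb1 led the higher genes. It encodes the beta chain of the class II molecule E, with which antigen-presenting cells show peptides to T cells. Without aspirin H2-Eb1 stood at 8.16 with gum arabic and 8.52 with LG21, and with aspirin at 7.57 and 8.02. The LG21 array was the higher of its pair both times, by 1.28-fold and 1.37-fold, an average of 0.41 on the log2 scale (SE 0.04), but LG21+Asp lay below GA+GA, so the groups overlapped.

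The partner genes of H2-Eb1 did not share its pattern in full. The 7 measured MHC class II genes had 3 higher in both pairs and 0 lower, with a median average of 0.04. Of the 6 beside H2-Eb1, 2 were higher (33.3%, against 14.0% over all genes) and 0 lower (against 13.2%). The others that were higher were Ciita (0.07 and 0.10), the master activator of class II transcription, and the peptide-loading gene H2-DMa (0.03 and 0.06). Both lay under the filter level. The alpha chain gene H2-Aa differed by 0.00 without aspirin and -0.10 with it. H2-Ab1 differed by 0.10 and -0.07, and the invariant chain gene Cd74 by 0.27 and -0.13. The split of 3 and 0 became 4 and 1 after quantile normalization and 3 and 2 after cyclic loess. Class II genes vary in sequence between mouse strains, and the genotypes of these outbred mice are not known, so genotype and treatment cannot be told apart for H2-Eb1.

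Ly6e, a membrane-anchored protein inducible by interferon, was second. It stood at 11.52, 11.73, 10.99 and 11.21 in the order GA+GA, LG21+GA, GA+Asp and LG21+Asp, 1.16-fold higher with LG21 in each pair. Both arrays with aspirin lay below both without it, so the groups overlapped. Among 20 interferon response genes 5 were higher in both pairs and 1 lower. Over all genes the shares were 14.0% higher and 13.2% lower. The split of the interferon list became 4 and 4 after cyclic loess, so its direction depended on the scaling. Of 17 genes of T cells and cytotoxic lymphocytes, 6 were higher (35.3%, against 14.0% over all genes) and 0 lower (against 13.2%). After cyclic loess this split was 3 and 3. Only 1 of the 17, Ccl5, passed the filter, and some differences were as small as 0.00, as for Cd8a. Of 6 eosinophil genes 3 were higher, with the sialic acid receptor Siglecf at 0.06 in both pairs, and none of the 6 passed the filter.

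In the prostaglandin pathway, Ptgs2 ranked next after Ly6e among the higher genes. It stood at 7.74 with gum arabic and 7.93 with LG21, and in the aspirin pair at 7.91 and 8.18. Both LG21 arrays lay above both GA arrays, the lower of them by a small margin over GA+Asp. The differences were 1.14-fold and 1.21-fold, with an average of 0.23 (SE 0.03).

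Of 28 genes of prostaglandin and leukotriene synthesis and reception, 6 were higher in both pairs and 4 lower, with a median average of 0.00. Without Ptgs2, 5 of 27 were higher (18.5%, against 14.0% over all genes) and 4 lower (14.8%, against 13.2%). Alox5ap, which presents arachidonic acid to the enzyme of leukotriene synthesis, was higher by 0.17 and 0.11, and Alox12, an arachidonate lipoxygenase, by 0.11 and 0.16. The F prostaglandin receptor gene Ptgfr was lower by 0.12 and 0.30. Alox12 and Ptgfr lay under the filter level. The prostaglandin E synthases Ptges and Ptges3 were lower in both pairs by under 0.1, and Hpgd, which breaks prostaglandins down, differed by 0.00 in each. No probe set named Ptgs1 alone, and it is not analysed here.

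Fosb, a subunit of the AP-1 transcription factor induced within minutes to hours of a stimulus, was sixth. It stood at 7.40, 7.60, 7.43 and 7.59 in the same array order, so both LG21 arrays lay above both GA arrays. The other immediate early genes were mixed, with 4 of 21 higher in both pairs (19.0%) and 3 lower (14.3%), against 14.0% and 13.2% over all genes. Atf3 (0.09 and 0.10) and Ier3 (0.28 and 0.09) were higher. Dusp1, a phosphatase that switches off MAP kinases, was lower by 0.11 and 0.16 and Nr4a1 by 0.05 and 0.12. Fos itself differed by 0.10 and -0.01.

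Further epithelial genes were among the 12 highest-ranked. Gkn3, a gastrokine of the stomach lining, stood at 8.86, 9.17, 8.84 and 9.0, 1.24-fold and 1.11-fold higher with LG21. Tm6sf2, a membrane protein needed for lipid export, stood at 8.89, 9.28, 8.78 and 8.93. For both genes the LG21 arrays lay above both GA arrays, and the larger difference was without aspirin.

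The other gastric mucous genes showed little shared difference. Of the other 11 measured, 2 were higher in both pairs (18.2%, against 11.3% of genes above the filter level). Another 3 were lower (27.3%, against 20.3%), and all of these differed by under 0.1 in each pair. Galnt6, an enzyme that starts mucin sugar chains, differed by 0.32 and -0.10. Muc6 differed by 0.00 and 0.05, and Gkn1 by 0.00 in both. Several of them sit close to the highest value in the table, 13.87, so a lack of difference there says little.

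Tfrc, the transferrin receptor that takes iron into cells, was higher by 0.15 in each pair, at 9.37, 9.52, 9.51 and 9.65. Ltbp3, which binds latent transforming growth factor beta, stood at 8.5, 8.64, 8.57 and 8.76. Grrp1, Zfp526, Sbpl and Snhg17 completed the list, with averages between 0.15 and 0.27. For Snhg17, a host gene of small nucleolar RNAs, the other probe sets differed by 0.09 and 0.01, and by 0.13 and -0.06, so its place rests on 1 of 3 probe sets.

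**Figure D2:**
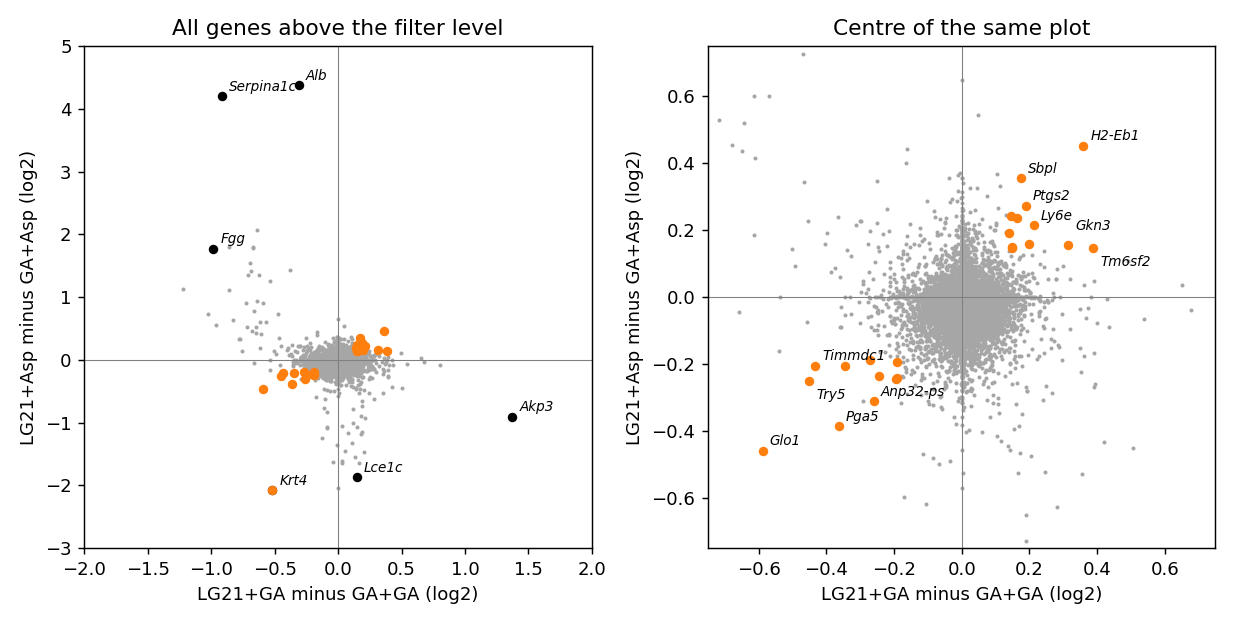
The LG21 difference without aspirin (horizontal, log2) against that with aspirin (vertical, log2) for the 9969 genes above the filter level, in full on the left and enlarged on the right; orange points are the 24 ranked genes and black points are genes with large differences of opposite sign. Alb (-0.31 and 4.37) lies far above and Krt4 (-0.52 and -2.07) far below the centre, while H2-Eb1, Glo1 and Pga5 lie near the diagonal.

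Krt4, a keratin of the non-cornified layers of stratified squamous epithelium, had the largest difference of the lower genes above the filter level. Without aspirin it stood at 8.88 with gum arabic and 8.36 with LG21, and with aspirin at 8.95 and 6.87. Both LG21 arrays lay below both GA arrays, but the 2 differences were unequal, 1.43-fold without aspirin (-0.52) and far more with it (-2.07). Its average of -1.29 (SE 0.57) therefore rests mostly on LG21+Asp.

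Other squamous genes were lower too. Of the other 20 measured, 9 were lower in both pairs (45.0%, against 13.2% over all genes) and 0 higher (against 14.0%). With Krt4 included the count was 10 of 21, and it was 10 after quantile normalization and 13 after cyclic loess. Over the genes above the filter level the lower count also rose after cyclic loess, from 2021 to 2699. Both LG21 arrays lay below both GA arrays for 3 of the 21 genes, and for 6.98% of all genes. Krt13, the partner of Krt4 in the same layers, was lower by 0.13 and 1.25, the desmosomal cadherin Dsc3 by 0.15 and 0.33, and Krt6b by 0.11 and 0.62. Of these, Dsc3 lay under the filter level. Serpinb5, known as maspin and expressed in squamous and other epithelia, stood at 9.08, 8.89, 8.89 and 8.65, lower by 0.19 and 0.24.

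The squamous difference was larger in the pair with aspirin. The list had a median difference of 0.00 without aspirin and -0.13 with it, and LG21+Asp was strictly the lowest of the 4 arrays for 16 of the 21 genes. Among 23 cornified envelope genes, which mark the outermost layer, 4 were lower in both pairs (17.4%) and 2 higher (8.7%). Over all genes 13.2% were lower and 14.0% higher. Another 14 of the 23 had opposite signs, and the list medians were 0.03 and -1.05. In whole tissue, fewer squamous cells and less RNA per squamous cell cannot be told apart, and the share of forestomach in each sample was not measured.

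**Figure D3:**
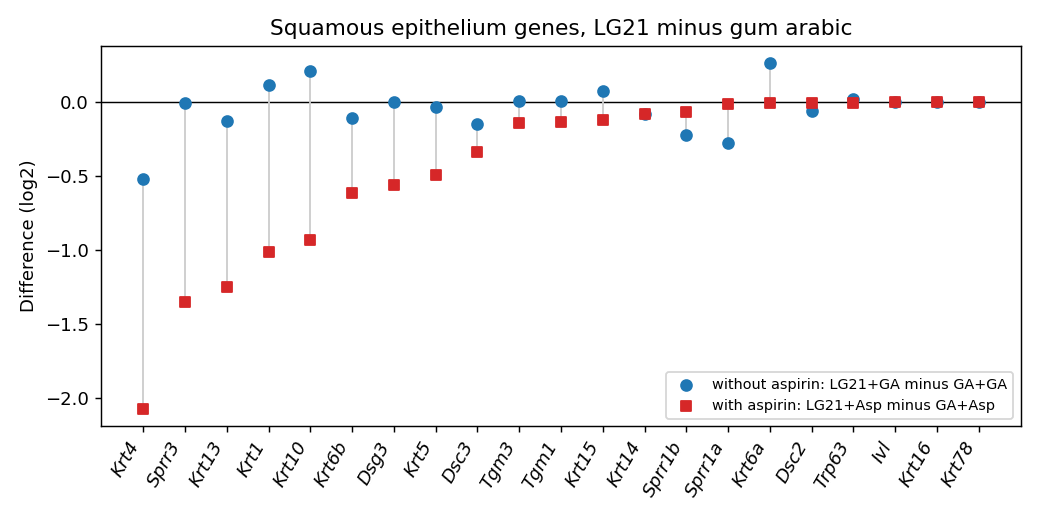
LG21 minus gum arabic (log2) for the 21 measured squamous epithelium genes, ordered by the difference with aspirin; blue circles are the pair without aspirin and red squares the pair with aspirin. Red squares reach -2.07 at Krt4, while blue circles, apart from Krt4 at -0.52, stay within 0.3 of 0.

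Glo1 encodes glyoxalase 1, which detoxifies methylglyoxal, a by-product of glycolysis. It stood at 10.19 with gum arabic and 9.61 with LG21, and in the aspirin pair at 10.14 and 9.68. The GA arrays were close to each other, as were the LG21 arrays, and the groups did not overlap. The differences were 1.5-fold and 1.37-fold, and the second probe set of the gene gave -0.49 and -0.45.

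Of the genes on either side of Glo1 in the RefSeq order, Btbd9, chosen after its values were seen, was lower by 0.10 and 0.16. Dnah8, chosen in the same way, differed by 0.00 and 0.02 at a level of 5.90 to 5.92. The Glo1 region is duplicated in some mouse strains, and the copy number in these outbred mice is not known, so genotype and treatment cannot be told apart here either. Of 20 metallothionein and antioxidant genes, 3 were higher in both pairs (15.0%, against 11.3% of genes above the filter level) and 4 lower (20.0%, against 20.3%).

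Pga5 encodes a pepsinogen, the precursor of the stomach protease pepsin. It stood at 11.06, 10.70, 10.97 and 10.58 in GA+GA, LG21+GA, GA+Asp and LG21+Asp. Both LG21 arrays lay below both GA arrays, and the differences were nearly equal, 1.29-fold and 1.31-fold, an average of -0.37 (SE 0.01). Bhlha15, a transcription factor of secretory cells including chief cells, was lower by 0.14 and 0.26, though LG21+Asp lay above GA+GA.

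The remaining chief and parietal genes showed little shared difference. Of the other 14 measured, 5 were lower in both pairs (35.7%, against 20.3% of genes above the filter level). Another 3 were higher (21.4%, against 11.3%). With Pga5 included the split was 6 and 3, and after quantile normalization or cyclic loess 4 and 6. Pgc, the other main pepsinogen, was lower by 0.01 and 0.03, and Cblif, gastric intrinsic factor, by 0.03 and 0.04. Gastric lipase, Lipf, was higher by 0.09 and 0.11, at 5.08 to 5.29 and so under the filter level. Atp4a, at 13.44 or 13.45, sits close to the highest value in the table, 13.87, so a lack of difference there says little.

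A set of trypsin genes accompanied Pga5. Try10 stood at 10.76, 10.41, 10.61 and 10.40, and Try5 at 7.86, 7.41, 7.60 and 7.35, with both LG21 arrays below both GA arrays. Try4, under the filter level, was lower by 0.27 and 0.41. These genes are near-identical copies, so their probe sets may share signal and the 3 are not separate observations.

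The other exocrine pancreas genes differed by less or in opposite directions. Of the 12 measured beside Try4 and Try5, 2 were lower in both pairs, Clps and Rnase1 (16.7%, against 13.2% over all genes). Another 2 were higher (16.7%, against 14.0%). Cpa1 differed by 0.00 and -0.06, Cpb1 by 0.00 in both, and Clps by -0.02 and -0.03, close to the highest value in the table, where a small difference says little.

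Among the other lower genes, Timmdc1, an assembly factor of respiratory complex I, stood at 9.51, 9.07, 9.39 and 9.18. Mgat4a, which branches N-linked sugars, stood at 9.96, 9.77, 9.96 and 9.77, with the 2 arrays of each treatment nearly equal and differences of -0.19 in each pair. Pkia, an inhibitor of protein kinase A, was lower by 0.25 and 0.24.

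Mzt1, a part of the gamma-tubulin complex, was lower by 0.19 and 0.24, and its other probe set by 0.22 and 0.05. Selenok, a selenoprotein of the endoplasmic reticulum, was lower by 0.27 and 0.19, with LG21+GA and GA+Asp both at 8.30. The pseudogene Anp32-ps was lower by 0.26 and 0.31 and lay just outside the 1.2-fold limit of 0.263 on the log2 scale, with Gm10785 just inside it at 0.29 and 0.31. On the higher side H2-Eb1 lay inside the limit and Ly6e, at 0.21, outside.

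Some stress and metabolic genes were lower by small amounts. Of 15 heat shock genes, 6 were lower in both pairs (40%, against 20.3% of all genes above the filter level) and 0 higher (against 11.3%). The lower ones were led by the chaperone partner Chordc1 (-0.24 and -0.17), Dnaja1 (-0.11 and -0.06) and Hspa8 (-0.03 and -0.06). Of 16 genes of fat oxidation under PPAR control, 9 passed the filter. Of the 16, 0 were higher (against 14.0% over all genes and 11.3% of genes above the filter level). Another 6 were lower (37.5%, against 13.2% and 20.3%). Acot1 (-0.31 and -0.13) and Vnn1 (-0.10 and -0.06) led, both under the filter level. After quantile normalization these splits were 4 and 3 for heat shock and 3 and 3 for fat oxidation, so neither direction is independent of the scaling.

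Of 21 genes of the EGF family and mucosal repair, 12 passed the filter. Of the 21, 5 were lower in both pairs (23.8%) and 2 higher (9.5%). The share lower over all genes was 13.2%, and over genes above the filter level 20.3%. The shares higher were 14.0% and 11.3%. Plaur, the urokinase receptor, was lower by 0.15 and 0.23. The receptor genes Egfr (-0.10 and -0.12) and Met (-0.15 and -0.10) were lower, while the ligand gene Egf was higher by 0.06 and 0.10.

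**Figure D4:**
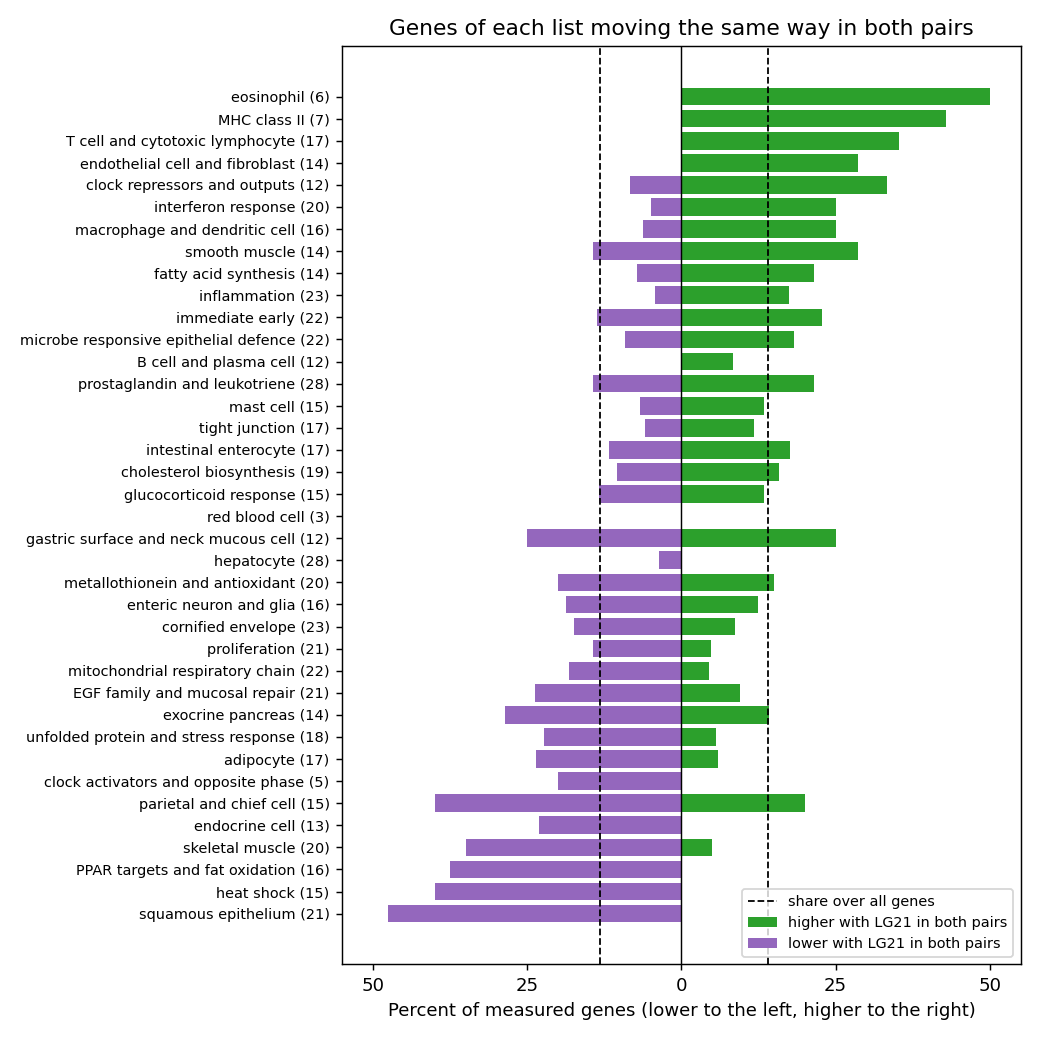
Percent of the measured genes of each of 38 gene lists that were higher (green, right) or lower (purple, left) with LG21 in both pairs, with the number measured in brackets and dashed lines at the shares over all genes (14.0% higher, 13.2% lower). The squamous epithelium list reaches 47.6% lower with 0 higher, and the eosinophil list 50% higher, which is 3 of 6 genes.

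The average over aspirin backgrounds can hide opposite differences. Of the 4 genes with an average of at least 2-fold, only Krt4 had the same sign in both pairs. Alb, serum albumin, stood at 12.69, 12.37, 7.43 and 11.80, and its average of 2.03 (SE 1.73) joins -0.31 and 4.37. Serpina1c, of the alpha-1-antitrypsin family, had values of 10.31, 9.39, 3.91 and 8.11, lower with LG21 in the first pair and higher in the second, and Serpinb12, named after its values were seen, joins 0.00 and -2.03.

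Genes typical of hepatocytes as a whole had this pattern. Of 28 measured, 27 had opposite signs, which held for 27.6% of all genes. The medians were -0.67 without aspirin and 1.35 with it, and GA+GA was highest for all 28. The median level of the list ran from 6.65 in GA+Asp to 9.30 in GA+GA, and its part in other differences was not tested. The ranking rule needs the same sign in both pairs, so it shuts out the 27 hepatocyte genes with opposite signs. That none of the 24 ranked genes is on this list follows largely from the rule. Over the 9969 genes, which are not independent, Pearson's r between the 2 differences was -0.26 and Spearman's rho 0.04. Without the hepatocyte, squamous and cornified lists they were -0.12 and 0.04 over 9927 genes.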

How the data were processed

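Total RNA of 5 gut samples was hybridised to Mouse Gene 1.0 ST arrays, 1 per group. The authors deposited RMA values from Expression Console, per the labels, whereas the series' design text names the Exon Array Computational Tool. Their log2 scale was read from the range of the deposited values, 1.32 to 13.87. Software versions and the build are not given in the sources used here.

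Of 35557 probe sets, 21789 named 1 gene, 1621 several and 12147 none; 21698 symbols matched RefSeq (GRCm38.p6). They gave 19938 genes, and where several probe sets named a gene (999 genes) the brightest by its mean over 5 arrays stood for it. Genes with a mean above the median of all genes, 7.41, were kept. The 4 arrays were tested with limma 3.58.1 in R 4.3.3 (LG21 and aspirin as terms, Benjamini-Hochberg). On simulated data with the same spread for every gene, the fit recovered the mean of the added differences. Its error rate and power at the spread of these arrays were not assessed. With 1 array per group, the number of arrays limits the precision. In the fit with both terms, p-values rest on the disagreement between a gene's LG21 differences without and with aspirin. They do not measure the spread between animals.

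Named genes were the 12 highest-ranked each way, up to 4 members of each list described, the 3 largest opposite interactions each way, and fixed controls. The ranking skipped predicted names, small RNAs, segments of immune receptors and chemosensory receptors. Further list members are named as examples, including ones that did not differ, and were chosen after their values were seen. The members and the 38 lists (682 symbols, 622 measured) were chosen with earlier results of these data known. Alternatives were other filters, fold limits, the mean of probe sets, quantile normalization, cyclic loess with 3 iterations, no aspirin term, and a trended robust prior. Single pairs and the same-sign counts were added after seeing the data.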

Additional observations from a re-analysis of the deposited data

Results flagged for a closer look

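Genes whose LG21 difference had opposite signs with and without aspirin stood out by the size of the difference between the pairs. With 1 array per group this difference was not tested. The LG21 difference with aspirin minus that without was 5.12 on the log2 scale for Serpina1c, 4.68 for Alb and 2.75 for Fgg, a fibrinogen chain gene. For Akp3, an intestinal alkaline phosphatase gene, it was -2.28, with 1.37 without aspirin and -0.90 with it. For comparison, the median size of this difference over the 9969 genes was 0.0554. Lce1c (-2.02) and Kprp (-1.81), of the cornified layer, were the next largest in the direction of Akp3 among genes with opposite signs.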

How the results depend on the processing

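The count of 0 genes past the limma threshold held under each alternative run, and without an aspirin term the lowest adjusted p was 0.765, with a trended robust prior 0.786. At an unadjusted p under 0.05 these fits had 66 higher and 209 lower, and 134 higher and 324 lower. Genes at least 1.2-fold apart in both pairs, 1 higher and 4 lower, became 8 and 10 with no filter, 0 and 2 with a filter at the 75th percentile, 13 and 44 at 1.1-fold, 0 and 2 at 1.3-fold, and 0 and 0 at 1.5-fold. A single pair gave 47 and 84 without aspirin and 63 and 121 with it. Quantile normalization and cyclic loess each gave 1 and 5, and the mean of probe sets 1 and 4. The 1123 genes higher in both pairs became 2792 with no filter, 538 at the 75th percentile, 3079 after quantile normalization and 2374 after cyclic loess. The 2021 lower genes became 2628 with no filter, 1205 at the 75th percentile, 2073 after quantile normalization and 2699 after cyclic loess. Of the 13 and 44 genes at 1.1-fold, 13 and 34 remained after quantile normalization and 11 and 35 after cyclic loess. The 24 ranked genes kept their direction under these scalings and with the mean of probe sets. List medians shifted by at most 0.02 under scaling or probe set choice, but some medians were smaller than that and changed sign. The parietal and chief cell median was -0.00155 as deposited and 0.0104 after quantile normalization. For the inflammation list the median was 0.0114 as deposited and -0.0043 after cyclic loess. The aspirin term pairs the arrays by aspirin background, and the fit without it is the unpaired alternative; the labels carry no replicate number for a further block.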

Other observations

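A few more genes lower in both pairs were picked after their values were seen, so their shared sign restates the choice. Slc40a1, which encodes the iron exporter ferroportin, was lower by 0.13 and 0.15, with both LG21 arrays (8.08 and 8.04) below both GA arrays (8.22 and 8.19). Hmox1, which releases iron from haem, was lower by 0.14 and 0.19, with LG21+Asp (8.53) level with GA+GA (8.52). No list of iron genes was counted.

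Under the filter level, 6 genes were at least 1.2-fold lower and 7 at least 1.2-fold higher in both pairs. Over all 19938 genes, 10 were lower by that limit (0.0502%) and 8 higher (0.0401%). The genes named here were chosen after their values were seen. Defb4, an antimicrobial beta-defensin, stood at 6.99 with gum arabic and 6.03 with LG21, and with aspirin at 7.08 and 5.41. Its smaller difference, -0.96, was larger in size than that of Krt4 (-0.52), the first of the lower genes above the filter level. Chil5, a chitinase-like protein, stood in the same order at 6.40, 5.87, 7.53 and 5.86, and for both genes the LG21 arrays lay below the GA arrays. Serpinb3c, a protease inhibitor, was lower by 0.28 and 1.26, and Rrs1, a ribosome biogenesis factor, by 0.57 and 0.33.

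Of the higher genes under the filter level, the mucosal pentraxin gene Mptx1 was higher by 0.30 and 0.29, at 4.50 to 5.09, and Wfdc6a by 0.35 and 0.43, at 5.45 to 5.96. Of the 22 measured genes of the epithelial defence list, 4 were higher in both pairs (18.2%, against 14.0% over all genes) and 2 lower (9.1%, against 13.2%).

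Of 12147 probe sets that name no gene, 15 lay above the filter level and were at least 1.2-fold higher in both pairs. Another 40 above that level were at least 1.2-fold lower. How many of the 12147 lie above the filter level was not counted. These numbers therefore have no share to set beside those of the genes. For the 1621 probe sets naming several genes the counts were 0 and 0.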
